A study of Mus musculus with 23 samples.

Results

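The amyloid, tau and Apoe genes described here are App, Mapt, Apoe, Psen2, Bace1, Adam10, Ncstn and Psenen, chosen by name for their roles in amyloid precursor processing, tau and lipid transport. All 8 were found in a table of 13766 genes measured by RNA sequencing in the mouse hippocampus. The choice was by name, but was made with earlier results of these data known. None of the 8 passed an adjusted threshold in any comparison of sex chromosomes or gonads. Every pair of groups overlapped for every one of them, but the share of all genes with such overlap is not given here. Between libraries of the same group, the levels of some of these genes moved with sequencing depth, transcript length or cell type markers.

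App encodes the amyloid precursor protein, a membrane protein of neurons that is cut by alpha-secretases such as ADAM10 inside the amyloid-beta stretch, or by the beta-secretase BACE1 at its start. The remaining stub is then cut within the membrane by gamma-secretase, a complex of a catalytic presenilin (PSEN2 is 1 form) with nicastrin (Ncstn), APH1 and PEN-2 (Psenen), and the path through BACE1 releases amyloid-beta. Mapt encodes tau, which binds microtubules in axons, and Apoe encodes apolipoprotein E, the main lipid carrier of the brain, made mostly by astrocytes and also by microglia.

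The 23 hippocampi, 1 per library and each from another animal, were taken at about 12 months of age from C57Bl/6J mice of the FCG model, which crosses the sex chromosomes with the gonads. In these mice the testis-determining gene Sry is deleted from the Y chromosome and supplied as an autosomal transgene, so that sex chromosomes and gonads are inherited separately. The groups were XX with ovaries (XXF, n = 5, no transgene), XX with testes (XXM, n = 6, transgene), XY with ovaries (XYF, n = 6, Sry-deleted Y, no transgene) and XY with testes (XYM, n = 6, Sry-deleted Y and transgene). The design asks whether expression follows the sex chromosomes, the gonad or both. Cages were assigned at weaning by the look of the genitalia, so housing and gonad type cannot be told apart, nor can the transgene and the gonad.

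Library totals ran from 10257751 to 36078221 counts, with group medians of 18192140 in XXF, 27954947 in XXM, 17537326 in XYF and 21739971.5 in XYM. The Y genes matched the labels in all 23 libraries, and Xist did in all but XYF 4, which had 94.1 CPM (the count scaled to its library total, in the usual unit of RNA sequencing) against at most 2.86 in XYM and at least 936 in XX. Markers of neurons, hippocampal excitatory neurons and glia were present in every library. Summed markers of the choroid plexus, the secretory tissue of the ventricles beside the hippocampus, were at 1901 to 3317 CPM in 7 libraries (XXF 1; XXM 1, 3, 4 and 5; XYF 5; XYM 1) and at 56.4 to 212 CPM in the other 16.

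Coordinates below are those of the table, whose build is mm10 per the submitters' processing notes, and each of the 8 genes overlapped the gene of the same name in the GENCODE annotation. App (gene 11820) lies on chromosome 16 from 84954436 to 85173707 on the minus strand, Mapt (gene 17762) on chromosome 11 from 104231436 to 104332093 on the plus strand, and Apoe (gene 11816) on chromosome 7 from 19696244 to 19699166 on the minus strand. Adam10 (gene 11487) lies on chromosome 9 from 70679001 to 70780229 and Bace1 (gene 23821) on the same chromosome from 45838529 to 45862484, both on the plus strand. The gamma-secretase genes are all on the minus strand: Psen2 (gene 19165) on chromosome 1 from 180227004 to 180256300, Ncstn (gene 59287) on chromosome 1 from 172066013 to 172082749, and Psenen (gene 66340) on chromosome 7 from 30561866 to 30563184. None lies on a sex chromosome. Some exons are shared with genes on the opposite strand, and whether reads were assigned by strand is not stated in the sources used here. Bace1 shares 15.4% of its exon bases with Rnf214, 14.98% with Gm49338 and 2.13% with Gm16536. Psenen shares 9.33% with U2af1l4 and 8.71% with Gm49396, Ncstn 4.91% with Copa, and App 0.870% with Gm49227. Reads from these stretches may belong to either gene, and their share of each level was not measured.

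Apoe and Adam10 were the only 2 of the 8 genes whose levels were correlated past the adjusted threshold, as described further on, and the 250 bases before their transcription starts are shown for that reason, a choice made after the values were seen. Sequences are from RefSeq (GRCm38.p6), which held 6 of the 8 genes. Capitals mark matches on either strand to a GC box with the letters GGGCGG, to a TATA box with the letters TATAAA, or to a CCAAT box, named for its letters. These motifs do not share a match here, except that GC boxes may overlap each other.
Apoe, chr7:19699189-19699438, minus strand: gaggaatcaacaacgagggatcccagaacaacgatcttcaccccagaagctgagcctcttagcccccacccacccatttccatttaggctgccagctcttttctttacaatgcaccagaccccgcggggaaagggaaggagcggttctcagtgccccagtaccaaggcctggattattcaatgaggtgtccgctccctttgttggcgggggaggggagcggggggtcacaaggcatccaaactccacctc
Adam10, chr9:70678732-70678981, plus strand: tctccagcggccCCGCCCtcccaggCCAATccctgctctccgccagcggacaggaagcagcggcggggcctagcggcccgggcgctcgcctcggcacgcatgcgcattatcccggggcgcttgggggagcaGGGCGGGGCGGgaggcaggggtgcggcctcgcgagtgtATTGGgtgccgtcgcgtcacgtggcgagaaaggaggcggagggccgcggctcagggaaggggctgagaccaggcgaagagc
The Adam10 window held 3 GC boxes and 2 CCAAT boxes and was 74% G or C, higher than 95.1% of all promoters. The Apoe window held none of the 3 motifs and was 57.2% G or C, higher than 64.7%. Over all 32851 promoters, 32.7% held a GC box, 12.4% a TATA box and 33.8% a CCAAT box. A match is a description of the letters and was not tested as a binding site.

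The substrate gene App was the most abundant of the 8 and ranked 16 among all genes by CPM. It was measured at 1579, 1731, 1623, 1524 and 1800.0 CPM in XXF 1 to 5. The lowest, median and highest libraries were at 1492, 1593 and 1737 CPM in XXM, 1582, 1619 and 1697 in XYF, and 1504, 1595 and 1727 in XYM. All 4 groups overlapped, and the highest of all 23 libraries was only 1.21 times the lowest. The mean ± SD was 1651 ± 113 CPM for XXF (n = 5), 1608 ± 99.0 for XXM, 1625 ± 43.3 for XYF and 1601 ± 80.8 for XYM (n = 6 for each of these 3).

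Mapt, the tau gene, was at 563, 635, 559.8, 591 and 646 CPM in XXF 1 to 5. Its lowest, median and highest libraries were at 556, 586 and 603 CPM in XXM, 516, 552 and 614 in XYF, and 570.3, 590.2 and 611 in XYM. XYF had the lowest mean (560.3 ± 35.2 CPM, SD, n = 6) and still reached above the highest XXM and XYM libraries. The mean ± SD was 599 ± 40.0 for XXF (n = 5), 583 ± 16.3 for XXM (n = 6) and 590.4 ± 17.1 for XYM (n = 6).

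Apoe, whose product carries cholesterol and phospholipid between cells, was at 1100.0, 1085, 1026, 838 and 1073 CPM in XXF 1 to 5. The lowest, median and highest libraries were at 862, 973 and 1081 CPM in XXM, 933, 1024 and 1216 in XYF, and 891, 933 and 1183 in XYM. Of these, 2 libraries stood apart from their groups: XXF 4 was low, at 838 CPM, and XYM 3 was high, at 1183 CPM with the other XYM libraries at 891 to 942. The mean ± SD was 1024 ± 108 CPM for XXF (n = 5), 972 ± 71.3 for XXM, 1039.9 ± 94.5 for XYF and 965 ± 109 for XYM (n = 6 for each of these 3).

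Of the enzymes that make the first cut, Adam10, the main alpha-secretase of neurons, was at 91.1, 93.2, 106, 99.7 and 98.3 CPM in XXF 1 to 5. Its lowest, median and highest libraries were at 95.2, 98.6 and 122 CPM in XXM, 84.7, 98.5 and 104 in XYF, and 92.6, 96.1 and 105 in XYM. XXM 3 was the single high library, at 122 CPM, and XYF 6 the lowest. Bace1, the beta-secretase, ranged from 120.3 to 150.4 CPM over all libraries, with a mean ± SD of 135 ± 10.7 for XXF (n = 5), 138 ± 5.47 for XXM, 131 ± 6.56 for XYF and 135 ± 5.24 for XYM (n = 6 for each of these 3), all within reach of each other.

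Among the gamma-secretase genes, Ncstn, the subunit that receives substrates, was at 69.2, 73.9, 63.1, 66.6 and 70.3 CPM in XXF 1 to 5. Its lowest, median and highest libraries were at 64.6, 66.3 and 74.9 CPM in XXM, 60.2, 65.4 and 67.7 in XYF, and 63.3, 70.4 and 74.5 in XYM. No XYF library exceeded 67.7 CPM, while each of the other groups had a library at 73.9 or above, and the ranges overlapped. Psenen, the smallest subunit, was at 33.3, 32.4, 42.5, 37.4 and 32.7 CPM in XXF 1 to 5. Its lowest, median and highest libraries were at 27.9, 31.2 and 38.2 CPM in XXM, 30.4, 36.9 and 44.2 in XYF, and 31.6, 33.7 and 38.9 in XYM. The libraries highest in their groups were XXF 3, XXM 6, XYF 6 and XYM 3. Psen2, the lowest of the 8, ranged from 13.3 to 20.3 CPM, with both ends in XXM, and its means lay between 15.7 ± 1.29 for XYM and 17.04 ± 0.806 for XYF (SD, n = 6 each).

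**Figure D1:**
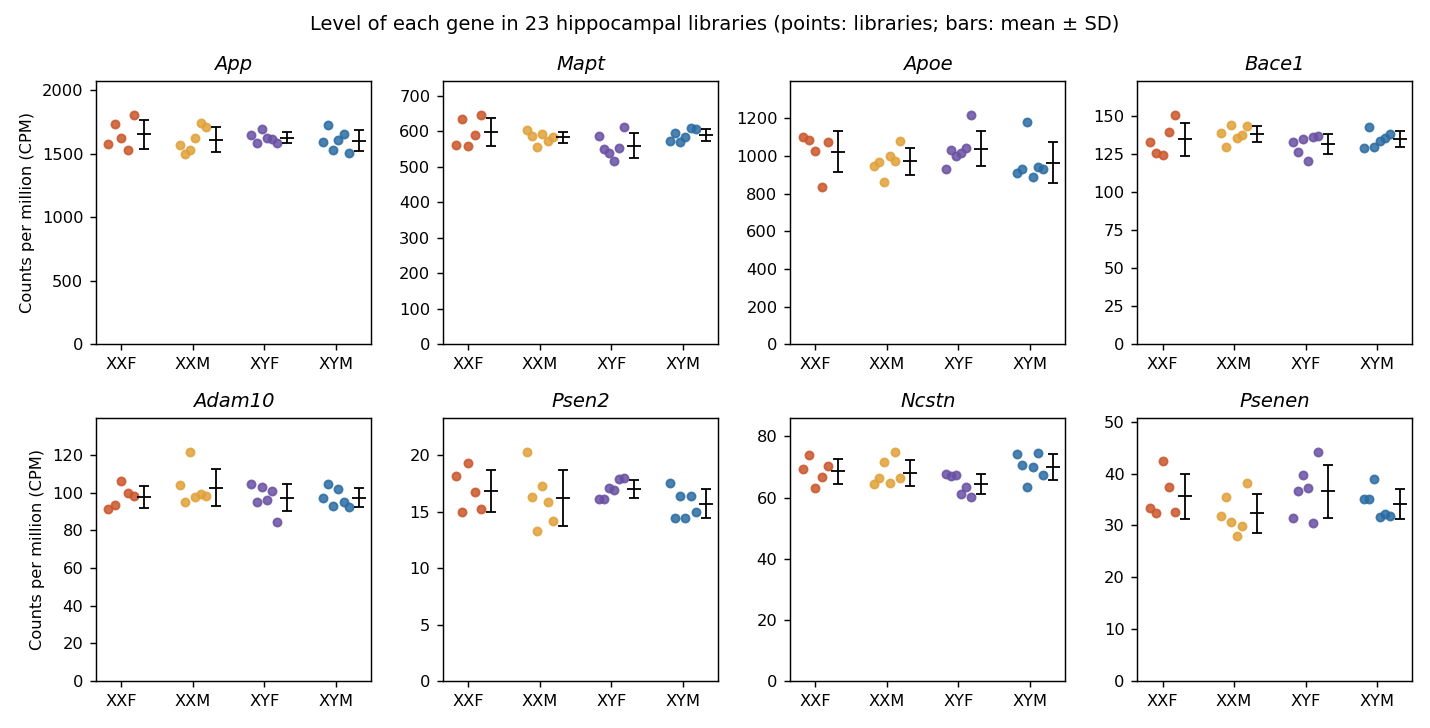
Level of each of the 8 genes in CPM (y axis, from 0) in the 4 groups (x axis); each point is 1 library and each black bar is the group mean ± SD (n = 5 in XXF and 6 in the others). The groups overlap in every panel, and the high XYM library of Apoe (1183 CPM) and the high XXM library of Adam10 (122 CPM) lie away from the rest of their groups.

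Levels of different genes were compared per kilobase of transcript, since longer transcripts collect more counts. Per kilobase of the principal transcript, Apoe was highest at 709.8 CPM per kilobase, followed by App at 510.05, Mapt at 428 and Psenen at 48.9. Ncstn at 23.4, Bace1 at 22.2 and Adam10 at 21.5 were close together, and Psen2 was lowest at 8.14. Dividing instead by all annotated exon bases kept the first 4 and the last in place, with Apoe at 467, App at 125, Mapt at 77.3, Psenen at 27.2 and Psen2 at 3.79, but put Bace1 (21.2) and Adam10 (20.1) before Ncstn (17.1). The order of those 3 is therefore not settled by these data. App, Mapt and Apoe stood above every secretase gene on both scales.

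XY was first compared with XX over both kinds of gonad (the sex chromosome effect), and none of the 8 genes was called by edgeR's quasi-likelihood test at a Benjamini-Hochberg adjusted p under 0.05, with 0.283% of all genes called. None had an unadjusted p under 0.05 either, against 6.78% of all genes. The log2 differences ran from -0.04 for Adam10 to 0.06 for Psenen, and adjusted p ran from 0.915 to 0.996. App differed by -0.01 (95% interval -0.09 to 0.06), Mapt by -0.04 (-0.11 to 0.03) and Apoe by 0.0057 (-0.11 to 0.12). The widest interval belonged to Psenen, from -0.08 to 0.19, and no interval of the 8 genes reached below -0.15 or above 0.19 on the log2 scale, which is 9.99% lower to 14.3% higher in XY. The median size of the difference was 0.03 for the 8 genes and 0.05 for all genes.

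Testes were then compared with ovaries over both kinds of sex chromosome (the gonad effect), and none of the 8 was called, with 0.16% of all genes called, and none had an unadjusted p under 0.05, against 13.6% of all genes. Psenen had the lowest value, -0.12 ± 0.07 (SE; 95% interval -0.26 to 0.01; adjusted p = 0.414 with edgeR). Apoe followed at -0.09 ± 0.05 (interval -0.20 to 0.02; adjusted p = 0.459 with edgeR), and Psen2 was also at -0.09 (interval -0.22 to 0.04). App at -0.03 and Mapt at 0.02 were near 0, and Bace1 at 0.04, Adam10 at 0.04 and Ncstn at 0.05 lay on the other side. The 8 genes were thus split 4 to 4 by sign, and their median size was 0.05 against 0.06 for all genes.

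Beside these values stands the transcript length balance of the libraries, a score added after the data were seen: the mean log2 CPM of the genes with the shortest principal transcripts (up to 2046 bases, 3303 genes) minus that of the genes with the longest (from 4652 bases, 3301 genes), leaving out the 8 genes. Its group medians were -1.13 in XXF and -1.09 in XYF, and -1.23 in XXM and -1.25 in XYM, with ranges that overlapped (-1.28 to -1.02 in XXF, -1.23 to -0.89 in XYF, -1.28 to -1.05 in XXM and -1.30 to -1.02 in XYM). The mean difference, testes minus ovaries, was -0.09 (exact permutation test of the gonad labels within XX and within XY, 2-sided, p = 0.0456), for a score chosen with the data in view. Across libraries the score was correlated past adjustment with Psenen and not with Apoe (r = 0.62, adjusted permutation p = 0.0844; r = 0.34 without XYF 6 and XYM 3). With that score as a covariate the gonad effect was 0.0045 for Psenen (adjusted p = 0.989 with edgeR) and -0.02 for Apoe (adjusted p = 0.946 with edgeR). Without the 7 libraries rich in choroid plexus markers, an alternative also added later, it was -0.07 for Psenen and -0.03 for Apoe. The part of the length balance in the gonad values was not tested beyond this covariate.

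The interaction, the gonad effect in XY minus that in XX, called none of the 8 and 0% of all genes, and the unadjusted p was under 0.05 for none of the 8 and 3.23% of all genes. Ncstn (0.13, interval -0.03 to 0.29) and Mapt (0.11, interval -0.03 to 0.25) had the highest values and Adam10 (-0.07, interval -0.25 to 0.11) the lowest, each with an adjusted p of 0.999 with edgeR. The intervals here were about as wide as 0.28 to 0.55, so the data set looser limits on an interaction than on either main effect.

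Between single groups, 1 of 40 values for the 8 genes had an unadjusted p under 0.05. This was Ncstn, higher by 0.12 ± 0.05 (SE; interval 0.01 to 0.23) in XYM than in XYF, with an adjusted p of 0.552 with edgeR, so it was not called. In that comparison 0.225% of all genes were called and 8.63% had an unadjusted p under 0.05. All 4 blood markers in the table were called lower in XYM than in XYF, with a median log2 difference of -1.12, and their summed level was 196 to 509 CPM in XYF and 109 to 267 CPM in XYM. Across libraries Ncstn had a correlation of 0.10 with the blood score, and with the length balance as a covariate its difference between XYM and XYF was 0.07. The part of the blood markers was not tested.

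In XYF against XXF, where 0.291% of all genes were called and 5.17% had an unadjusted p under 0.05, Mapt was at -0.10 (interval -0.20 to 0.0050; adjusted p = 0.962 with edgeR). In XYM against XXM, with 0.116% called and 5.29% at an unadjusted p under 0.05, the smallest p of the 8 was 0.218, for Adam10. In XXM against XXF, with 0% called and 7.71% at an unadjusted p under 0.05, Psenen had the smallest p (0.14) at -0.15 (interval -0.34 to 0.05). In XYM against XXF, the usual male and female complements, 0.131% of all genes were called and 10.1% had an unadjusted p under 0.05, and the 8 genes ran from -0.11 to 0.03. A test for any difference among the 4 groups called 0.508% of all genes, with 8.95% at an unadjusted p under 0.05. It called none of the 8, with the smallest p at 0.188 for Ncstn (adjusted p = 0.679 with edgeR).

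**Figure D2:**
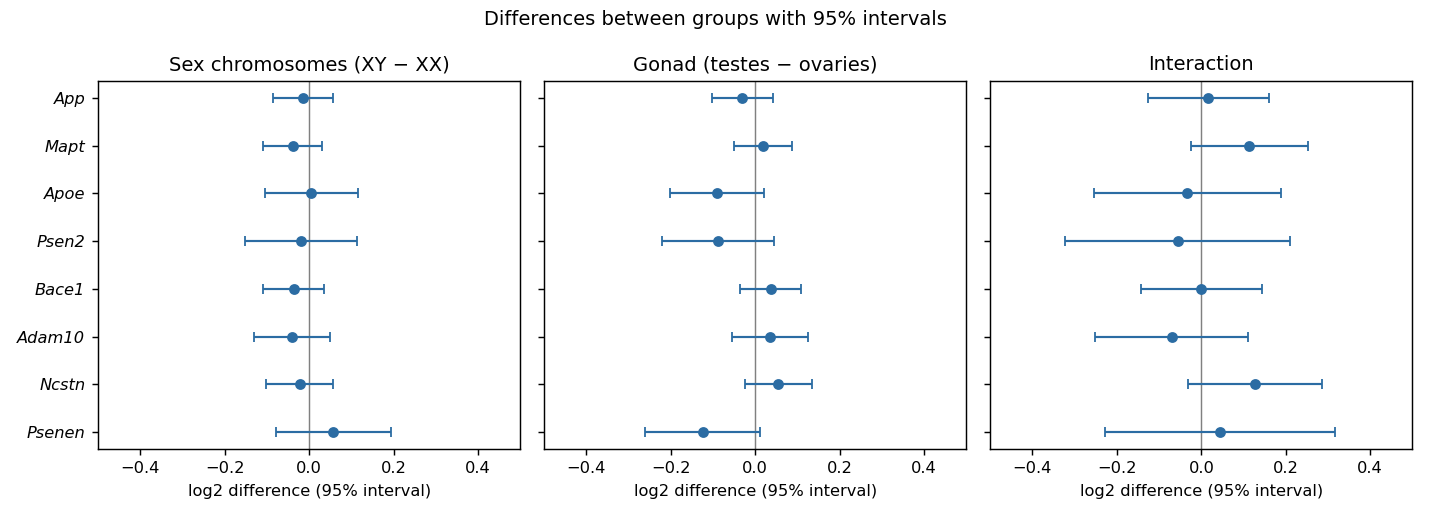
Log2 differences (x axis) of the 8 genes (y axis) with approximate 95% intervals for the sex chromosome effect, the gonad effect and the interaction, the gonad effect in XY minus that in XX. Every interval includes 0; the lowest gonad value is that of Psenen (-0.12) and the interaction intervals are the widest.

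The other genes of the pathways were taken as 10 lists holding 78 genes of the table, 6 of them among the 8 above. None of the 78 was called in any comparison. The unadjusted p was under 0.05 for 3 genes (3.85%) for the sex chromosome effect and for 10 (12.8%) for the gonad effect, close to the 6.78% and 13.6% of all genes or below them. Genes with the smallest p of their list for either effect are described next.

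Among proteins related to App, Aplp1, its neuronal relative, was at 1109 CPM in XXF, 1035 in XXM, 1089 in XYF and 1032 in XYM on average, a gonad value of -0.09 (adjusted p = 0.382 with edgeR), and Aplp2 was at -0.02 for the sex chromosomes. Among alpha-secretases Adam9 was at 0.09 for the gonad (adjusted p = 0.361 with edgeR). Aph1b, a scaffold subunit of gamma-secretase, was at -0.06 for the sex chromosomes (adjusted p = 0.922 with edgeR). Of the regulators of ADAM10 and ADAM17, the metalloprotease inhibitor Timp3 was at -0.15 for the sex chromosomes (adjusted p = 0.832 with edgeR). Rhbdf2, an inactive rhomboid that accompanies ADAM17, was at 0.33 for the gonad (adjusted p = 0.392 with edgeR) from only 0.596 to 2.44 CPM. Genes entered the table with a raw value of at least 20 in every library of a group. At its levels Rhbdf2 could meet this only in a group with testes. The shallowest library held 21143397 counts in XXM and 15921603 in XYM, against 10257751 in XXF and 11548107 in XYF. Its entry thus depended on level and depth in the testis groups, and the part of this in its gonad value was not tested.

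The smallest gonad p of all 78 belonged to Apba3, an adaptor that binds the tail of the amyloid precursor. Its means were 18.8 ± 2.70 CPM in XXF (SD, n = 5) and 17.4 ± 1.79 in XYF (SD, n = 6), against 15.1 ± 1.98 for XXM and 14.9 ± 1.71 for XYM (SD, n = 6 each). The gonad value was -0.26 ± 0.07 (SE), with an adjusted p of 0.145 with edgeR. Its relative Apba1 was at -0.05 for the sex chromosomes. Of the proteases that degrade amyloid-beta, Ide had a mean ± SD of 101 ± 27.8 CPM for XXF (n = 5), 119 ± 17.4 for XXM, 79.6 ± 21.7 for XYF and 97.6 ± 15.4 for XYM (n = 6 for each of these 3), a sex chromosome value of -0.32 (adjusted p = 0.565 with edgeR). Mme (neprilysin) was at 0.28 for the gonad (adjusted p = 0.287 with edgeR).

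Around Apoe, Rxra, a nuclear receptor that pairs with the liver X receptors controlling lipid genes, was at -0.12 for the sex chromosomes (adjusted p = 0.496 with edgeR). Apoc1, the apolipoprotein gene next to Apoe, was at 0.54 for the gonad (adjusted p = 0.256 with edgeR) at a level of 0.402 to 1.64 CPM. Like Rhbdf2, it could pass the filter of the table only in a group with testes. The part of the filter and of library depth in its gonad value was not tested. Around tau, Cdk5r2, an activator of the tau kinase CDK5, averaged 129 CPM in XXF and 119 in XYF, and 109 in XXM and 107 in XYM, a gonad value of -0.20 (adjusted p = 0.168 with edgeR). Ttbk2, a tau-tubulin kinase, was at -0.10 for the sex chromosomes (adjusted p = 0.735 with edgeR). Lcmt1, which methylates a tau phosphatase, was at 0.09 (adjusted p = 0.667 with edgeR).

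Within groups, 4 of the 8 genes were among the steadier genes of the table. The SD of log2 CPM was 0.07 for Mapt and 0.08 for App, Bace1 and Ncstn, with a median of 0.15 over all genes. Mapt ranked at percentile 2.46 of the SD over all genes, Bace1 at 4.17, App at 4.23 and Ncstn at 7.51. Adam10 had 0.10. Apoe at 0.14, Psen2 at 0.15 and Psenen at 0.17 varied about as much as the median gene. The counts behind these values are large for App (at least 17603 per library) and smallest for Psen2 (152 to 611), so relative counting error is largest for Psen2. By level, App ranked at percentile 99.9 over all genes, Mapt at 98.6, Bace1 at 86.9 and Ncstn at 72.0. The spread of these genes was not compared with that of genes of like level.

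Correlations between libraries were taken after the group means had been removed, over 23 libraries, with permutation p from 100000 reshufflings within groups. Of the 28 pairs among the 8 genes, 1 passed adjustment over the pairs. Apoe and Adam10 went in opposite directions, with Pearson's r = -0.64 (permutation p = 0.00173, adjusted p = 0.0484) and Spearman's rho = -0.63 (permutation p = 0.00159, adjusted p = 0.0445). Without the 2 libraries farthest from the median of Apoe, XXF 4 and XYM 3, r was -0.75, and without the 2 farthest for Adam10, XXM 3 and XYF 6, it was -0.50. XYF 6 had the highest Apoe (1216 CPM) and the lowest Adam10 (84.7 CPM) of all libraries, and XXM 3 the highest Adam10 with the lowest Apoe of its group (862 CPM). The length balance had r = 0.62 with Apoe (adjusted permutation p = 0.0844) and -0.50 with Adam10 (adjusted permutation p = 0.184), and with it held fixed the partial correlation of the pair was -0.49. The next pairs, Ncstn with Psenen (r = -0.48) and App with Ncstn (r = 0.47), did not pass (adjusted permutation p = 0.399 for both). Of the gamma-secretase genes, Psen2 with Ncstn (r = -0.42, adjusted permutation p = 0.435) and Psen2 with Psenen (r = 0.17, adjusted permutation p = 0.612) did not pass either.

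**Figure D3:**
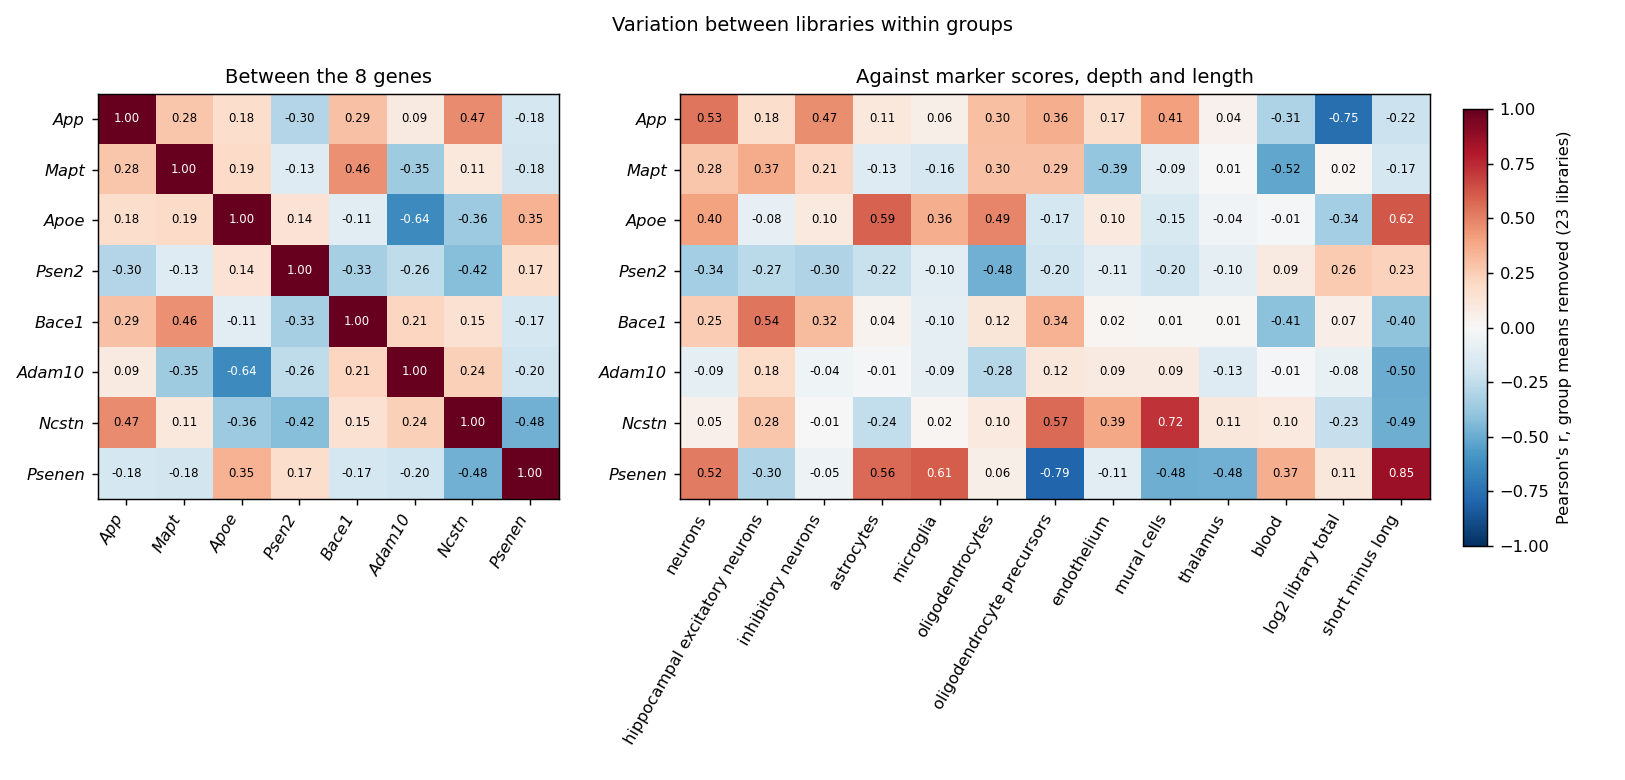
Pearson's r over 23 libraries, group means removed, between the 8 genes (left) and between each gene (rows) and 13 scores (right): 11 cell type or tissue marker scores, log2 library total and the short-minus-long transcript score. Red is positive and blue negative; the strongest values are 0.85 for Psenen with the length balance, -0.79 for Psenen with precursor markers and -0.75 for App with library total.

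The 8 genes were next set beside 13 scores, of which 11 were marker scores (the mean log2 CPM of a cell type's markers), 1 was log2 library total and 1 was the length balance. The choroid plexus score was left out because its libraries form separate clusters. Of 104 relations, 4 passed adjustment. In bulk tissue fewer cells of a type and less RNA per cell cannot be told apart in any marker score.

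App was lower in deeper libraries, with r = -0.75 against log2 library total (permutation p = 5e-05, adjusted p = 0.0026), rho = -0.74 (adjusted permutation p = 0.00416) and r = -0.70 without XXF 2 and XXF 4. Only 13 genes of the table (0.0944%) had a lower r. Of the 138 most abundant genes, 121 (87.7%) also had a negative r, with a median of -0.36, and the median over all genes was 0.01. With library total as a covariate the gonad effect of App was 0.03 in place of -0.03, and it was not called either way.

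Psenen followed the length balance, with r = 0.85 (permutation p = 3e-05, adjusted p = 0.0026), rho = 0.78 (adjusted permutation p = 0.00589) and r = 0.81 without XYF 6 and XYM 3. Its principal transcript has 708 bases, the shortest of the 8, and its r was higher than that of 99.4% of genes. The libraries highest in Psenen in their groups, XXF 3 (42.5 CPM), XXM 6 (38.2), XYF 6 (44.2) and XYM 3 (38.9), also had the highest scores of their groups, from -1.05 to -0.89. Psenen was also lower where the 2 markers of oligodendrocyte precursors, Pdgfra and Cspg4, were higher (r = -0.79, adjusted permutation p = 0.00451; rho = -0.84; r = -0.83 without XYF 4 and XYF 5). That marker score itself had r = -0.73 with the length balance (adjusted permutation p = 0.0048 over 12 scores), and their separate parts were not tested.

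Ncstn followed the mural cell score, from markers of pericytes and vascular smooth muscle, with r = 0.72 (permutation p = 0.0006, adjusted p = 0.0156) and rho = 0.71 (adjusted permutation p = 0.0205), and r = 0.60 without XXM 5 and XYM 3. XXM 5 had the highest Ncstn of all libraries (74.9 CPM) and XYM 3 the lowest of XYM (63.3 CPM). The summed mural markers lay at 69.1 to 93.0 CPM over all libraries, and at 72.7 to 82.5 in XYF and 72.2 to 86.6 in XYM. The length balance had r = -0.49 with Ncstn (adjusted permutation p = 0.184) and -0.44 with the mural score (adjusted permutation p = 0.130). Without XYF 6 and XYM 3 these were -0.27 and -0.21. The oligodendrocyte precursor score had r = 0.57 with Ncstn (adjusted permutation p = 0.102). The separate parts of these scores were not tested.

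Apoe had r = 0.59 with the astrocyte score, which did not pass adjustment (adjusted permutation p = 0.103), and 0.30 without XXM 6 and XYM 3. XYM 3, the high Apoe library, had the highest summed astrocyte markers of all libraries (2921 CPM against a median of 2617). The microglia score had r = 0.36 with Apoe and 0.61 with Psenen, neither past adjustment (adjusted permutation p = 0.393 and 0.0844). For the gonad effect, 13.6% of all genes had an unadjusted p under 0.05. So did 5 of 8 microglia markers (median -0.15) and 4 of 4 blood markers (median -0.70, smallest adjusted p = 0.0752 with edgeR), and none was called for it. In XYM against XYF (8.63% of all genes) it held for 5 of 8 microglia markers (median -0.24) and 4 of 4 blood markers (-1.12). In XXM against XXF (7.71% of all genes) it held for 0 of 8 (median -0.02) and 0 of 4 (-0.27). The blood score had r = -0.01 with Apoe and 0.37 with Psenen, neither past adjustment. The part of either marker list in the gonad values was not tested.

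**Figure D4:**
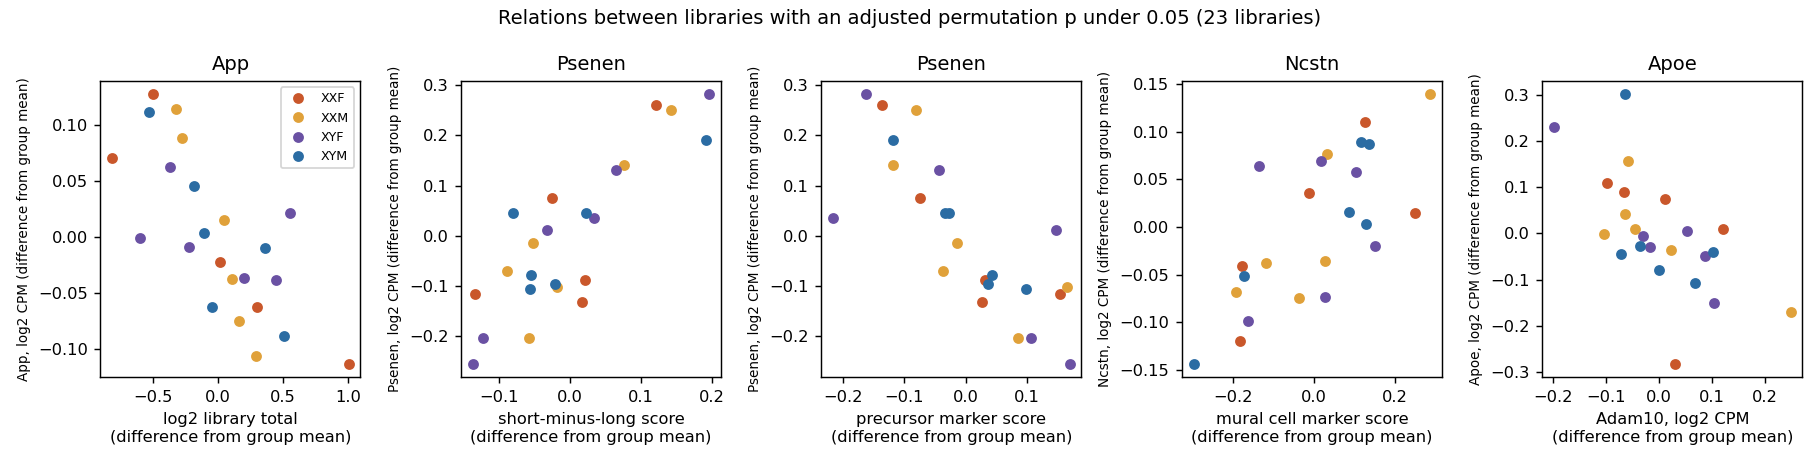
Relations between libraries with an adjusted permutation p under 0.05: App against library total, Psenen against the length balance and against precursor markers, Ncstn against mural markers, and Apoe against Adam10. Each point is 1 of 23 libraries, coloured by group, and both axes are log2 differences from the group mean; r is -0.75, 0.85, -0.79, 0.72 and -0.64 from left to right.

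The genes whose levels followed each of the 8 most closely across libraries, by Pearson's r of log2 CPM with group means removed, are given as a description. App was most like Gnas (r = 0.89), a G protein subunit, and Nsf (0.85), an ATPase of vesicle fusion. Mapt was most like Nr4a3 (0.88), an activity-induced nuclear receptor, and Synpo (0.87), an actin-associated protein of dendritic spines. Apoe had no gene above 0.8, the closest being Ckb (0.78), brain creatine kinase, and Tmbim6 (0.77).

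Adam10 was most like Man1a2 (0.89), a mannosidase of the Golgi, and Zyg11b (0.87), and Bace1 like Dgkg (0.87), a diacylglycerol kinase, and Aff2 (0.84). Psen2 was most like Slc26a6 (0.84) and Pla2g3 (0.73), and Ncstn like Ssh2 (0.82) and Dnahc8 (0.81), the last at a mean of 1.05 CPM. Psenen was most like Phb (0.93), prohibitin of the inner mitochondrial membrane, and Cuedc2 (0.92), and 178 genes had r over 0.8 with it, against 28 for Mapt, 23 for Adam10, 16 for Bace1, 6 for App, 2 for Ncstn and 1 for Psen2. The median over all genes of the best r is 0.84, so a closest r of that size is usual in this table.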

How the data were processed

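Hippocampal RNA of 23 mice was sequenced from strand-specific, rRNA-depleted libraries (500 ng of RNA, 100-base paired reads, per the labels' protocols). The authors deposited 1 table of estimated counts, raw values per the file headers that need not be whole, and log2 normalized values; genes were kept at a raw value of at least 20 in 100% of the libraries of a group, per the file headers. DESeq and mm10 are named in the submitters' processing notes. The aligner, the counter and its strand setting were not given in the sources used here. Counts were rounded, scaled by TMM factors and tested over all 13766 genes with edgeR 4.0.16 (quasi-likelihood, 2-sided) in R 4.3.3, with 1 mean for each group and Benjamini-Hochberg adjustment. A robust version of the fit was run first; the default was then taken as the main one because the plan named no robust option and the default gave the counts of an earlier processing; none of the 8 genes was called by either. The filter on low counts removed 0 genes. SE is the log2 difference over the root of F, and 95% intervals are approximate. CPM uses the normalized library size, and log2 CPM a prior count of 2. DESeq2 1.42.0 and limma 3.58.1, the latter also on the deposited log2 values, served as alternatives. Lengths were found for 95.9% of genes. The steps were tested on simulated data. Genes outside the 8 were named by rule: the smallest p in each pathway list for each main effect, any called list gene, and the 2 genes most correlated with each of the 8. The values of 1 gene that the rule names are not reported here. Members and lists were chosen with earlier results of these data known. The length balance, the omission of a pooled choroid plexus correlation, which had been planned, its cluster rule (an inner gap over 0.35 of the range) and the 1000 CPM bound on its markers were chosen after the values were seen. Aph1a, Tspan10, 5 other microtubule-associated proteins and the markers Acta2, Kcne2, Slc4a5, Cldn2 and Hbb-bt were not analysed here.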

Additional observations from a re-analysis of the deposited data

Results flagged for a closer look

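Of 32 combinations of a gene and a group, 3 held a library far from the others by Dixon's criterion. Chance meets it in about 1 of 20 for normally distributed values, and the share over all genes is not given here. Apoe in XXF 4 was low, at 838 CPM with the other XXF libraries at 1026 to 1100.0. Apoe in XYM 3 was high, at 1183 CPM with the others at 891 to 942; without it the gonad effect of Apoe was -0.12 (adjusted p = 0.233 with edgeR), and without XXF 4 it was -0.12 (adjusted p = 0.308 with edgeR). Adam10 in XXM 3 was high, at 122 CPM with the others at 95.2 to 104. XXM 3 is 1 of the 7 libraries rich in choroid plexus markers.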

How the results depend on the processing

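Under 36 alternatives, 23 of which left out 1 library each, 0 of 2280 values of the 8 genes were called and 51 had an unadjusted p under 0.05, the smallest adjusted p being 0.196 (Psenen, gonad effect, voom with quality weights). Of the 51, 29 were for XYM against XYF. The alternatives reuse the same libraries, so 51 of 2280 is not a rate, and the matching share of all genes is not given here. Of the 2280 values, 5 moved by more than the spread between libraries. Without the choroid-plexus-rich libraries, Adam10 was at -0.05 for XXM against XXF (0.07 with all) and 0.07 for the interaction (-0.07), and Psenen at -0.11 for XYM against XXM (0.08) and -0.16 for the interaction (0.04); with the length balance as a covariate Psenen was at 0.08 for XYM against XYF (-0.10). The cause was not tested. The number of genes called over the whole table depended more on the method. For the sex chromosome effect, 39 genes became 60 with DESeq2, 68 with voom weights, 61 with a choroid plexus covariate and 24 without the choroid-plexus-rich libraries, and 34 to 48 with 1 library left out. For the gonad effect, 22 became 98 with DESeq2, 76 with voom weights, 11 at a mean CPM of at least 5, 41 with a choroid plexus covariate, 13 with library total and 13 with the length balance as a covariate, and 17 to 85 with 1 library left out (85 without XXF 5, 49 without XYM 1, 42 without XYF 1, 34 without XYF 5). The interaction called 0 genes (444 at an unadjusted p under 0.05) and 0 to 3 with 1 library left out (3 without XYM 1, 1 without XYF 1). Of the 28 pair correlations, 0 moved by 0.2 or more with other size factors or with group means kept, and 4 did without the 2 libraries farthest for the first gene. Under both alternatives added later, 4 moved without the 2 farthest for the second gene and 10 with the length balance held fixed, of which 7 also changed sign (Apoe with Psenen from 0.35 to -0.44, Adam10 with Psenen from -0.20 to 0.50). Apoe with Adam10, the only pair past adjustment, moved by less than 0.2 under all 5. No paired analysis was possible because the replicate numbers follow accession order and pair nothing.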
